A study of Mus musculus with 9 samples.

Results

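Melanocyte lineage loci were followed in the open chromatin of mouse CD8 T cells from lymph nodes that drain a melanoma. The loci are those of Sox10, Mitf, Tyr, Tyrp1, Dct, Pmel, Mlana and Gpnmb. ATAC-seq, which tags open DNA with adapters by means of the Tn5 transposase, was run on P14 cells. Their transgenic T cell receptor recognises the glycoprotein of lymphocytic choriomeningitis virus (LCMV). Naive P14 cells that were negative for CD44 and positive for the GFP of a TCF-1 reporter came from reporter mice, and 500000 of them were given to C57BL/6 mice on day 8 of a B16.F10 melanoma expressing the LCMV glycoprotein. Donor cells sorted as CD45.1+CD44+ CD8 T cells were taken on day 4, day 8 or day 21 after the transfer, with 3 libraries of 50000 cells per day and 1 deposited peak list per library. All animals bore the tumor, and the labels give the donor cells as wild type. There was no tumor-free group, and it is not given whether a day's 3 libraries are separate animals, so p-values and SDs below describe the spread between these lists, which may be technical.

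A union region is a stretch where peaks of any of the 9 lists share at least 1 base, and a list calls the region when one of its peaks lies there. A region belongs to a locus when it overlaps the gene body, or when it overlaps no gene body and the nearest protein-coding gene end within 100 kb is that of the gene. This gave 22 of the 62963 union regions. Gpnmb had 9 of them, Mitf 5, Dct 3, Pmel 3 and Mlana 2, while Tyr, Tyrp1 and Sox10 had none. The rule used positions and no peak heights.

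Melanocytes are pigment cells that arise from the neural crest. The transcription factor SOX10 turns on Mitf, and MITF in turn drives the genes of pigment synthesis through short E-box elements that contain CATGTG or CACGTG, the form with a T in front being the core of the M-box of pigment gene promoters. Mitf has several alternative first exons: the most upstream ones serve many cell types, and the M exon, the last of them, is the one melanocytes use. MITF is also active in macrophages, osteoclasts and mast cells, and GPNMB is a glycoprotein of macrophages as well as of melanosomes.

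RefSeq promoter windows on GRCm38.p6, the assembly of mm10, run from 250 bases before to 50 bases after a gene start and were given for 5 of the 8 genes, in 7 windows. The window of the most upstream Mitf start and that of Gpnmb overlapped called regions, and the other 5 overlapped none in any list. Over all 32815 windows, 29.8% were overlapped by a call in every list and 59.5% by a call in none. The 6 windows below set the start sites that were called against melanocyte starts that were not. They are written 5′ to 3′ on the gene's strand, with capitals for TCATGTG (M-box core), TGTGGT (RUNX) and TGANTCA (AP-1) on either strand.
Mitf, most upstream start, chr6:97806808-97807107, plus strand, called in all 9 lists: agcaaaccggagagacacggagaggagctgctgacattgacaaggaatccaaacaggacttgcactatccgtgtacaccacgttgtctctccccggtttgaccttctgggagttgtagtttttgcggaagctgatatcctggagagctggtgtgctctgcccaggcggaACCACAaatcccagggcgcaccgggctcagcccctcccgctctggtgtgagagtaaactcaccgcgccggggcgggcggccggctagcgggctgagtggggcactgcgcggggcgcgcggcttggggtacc
Mitf, last start, chr6:97991533-97991832, plus strand, called in 0 lists: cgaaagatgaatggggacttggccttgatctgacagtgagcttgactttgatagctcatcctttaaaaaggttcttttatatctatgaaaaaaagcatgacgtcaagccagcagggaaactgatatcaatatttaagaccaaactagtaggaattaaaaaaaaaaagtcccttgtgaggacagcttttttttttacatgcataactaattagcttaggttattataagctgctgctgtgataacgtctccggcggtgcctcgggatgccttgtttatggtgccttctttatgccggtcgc
Gpnmb, chr6:49036268-49036567, plus strand, called in 0, 3 and 3 lists of days 4, 8 and 21: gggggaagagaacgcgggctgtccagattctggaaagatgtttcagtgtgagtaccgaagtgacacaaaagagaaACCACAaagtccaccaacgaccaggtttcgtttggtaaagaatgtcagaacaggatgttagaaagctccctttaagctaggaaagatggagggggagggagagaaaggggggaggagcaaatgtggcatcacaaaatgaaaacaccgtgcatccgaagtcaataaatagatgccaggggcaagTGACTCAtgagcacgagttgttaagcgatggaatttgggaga
Tyr, chr7:87493463-87493762, minus strand, called in 0 lists: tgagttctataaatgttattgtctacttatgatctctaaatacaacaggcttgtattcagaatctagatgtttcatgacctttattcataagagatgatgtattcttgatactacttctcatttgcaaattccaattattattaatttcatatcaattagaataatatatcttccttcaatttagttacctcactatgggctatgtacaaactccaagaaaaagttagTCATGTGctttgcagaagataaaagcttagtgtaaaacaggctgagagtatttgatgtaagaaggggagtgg
Tyrp1, chr4:80833963-80834262, plus strand, called in 0 lists: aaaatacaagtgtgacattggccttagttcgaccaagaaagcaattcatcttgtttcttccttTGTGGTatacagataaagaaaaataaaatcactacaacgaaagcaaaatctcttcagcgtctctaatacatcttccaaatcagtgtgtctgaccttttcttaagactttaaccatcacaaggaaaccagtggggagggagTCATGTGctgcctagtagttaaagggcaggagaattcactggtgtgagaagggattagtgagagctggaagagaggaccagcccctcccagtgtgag
Dct, chr14:118052197-118052496, minus strand, called in 0 lists: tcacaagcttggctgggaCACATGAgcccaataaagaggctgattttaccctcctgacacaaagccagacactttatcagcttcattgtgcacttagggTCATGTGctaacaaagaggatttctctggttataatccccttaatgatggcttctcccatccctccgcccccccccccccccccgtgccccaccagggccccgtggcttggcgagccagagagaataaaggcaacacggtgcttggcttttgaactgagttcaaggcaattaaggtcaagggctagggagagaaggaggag

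The M-box core was found in the windows of Tyr, Tyrp1 and Dct, with 1, 1 and 2 matches, and in none of the windows of Mitf and Gpnmb. It occurs in 3.77% of 32851 RefSeq windows. So the 3 windows with an M-box core were among those that no list called. TGTGGT, held by 16.8% of windows, was found once each in those of Tyrp1, Gpnmb and the most upstream Mitf start. TGANTCA, held by 7.81%, was found in that of Gpnmb, where the match starts at base 9 after the start. CTTTGA (TCF, 16% of windows) was found in those of both later Mitf starts, and ACAAT (SOX, 31.0%) in those of Tyr and Dct. CACGTG (E-box, 7.15%), with or without a T in front, and GGAAGT (ETS, 23.8%) were found in none of the 7. Every CATGTG match in these windows was part of an M-box core. A match is a run of letters and not a bound site.

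Depth and likeness of the lists set what can be read from them. On chromosomes 1 to 19 and X the lists held 19499 to 22250 peaks on day 4, 47513 to 50835 on day 8 and 46492 to 51671 on day 21. The lists carry no read totals. The smallest local background of a list was 2.62 to 3.38 tags on day 4, 2.14 to 2.63 on day 8 and 2.33 to 3.08 on day 21. It was not lower on day 4, but it depends on peak settings that are not stated as well as on reads. It therefore does not give the depth of a library. List 3 was the longest of each day. Summit pileups in 15108 regions differed between same-day lists by less than sampling noise (chi-square divided by regions, 0.417 to 0.444 in 9 pairs), against 0.965 to 1.18 in 27 pairs of different days. The lists hold only peaks past the authors' threshold, so a region without a call may still carry weaker signal. A region open in fewer cells and a region less open in each cell also cannot be told apart.

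**Figure D1:**
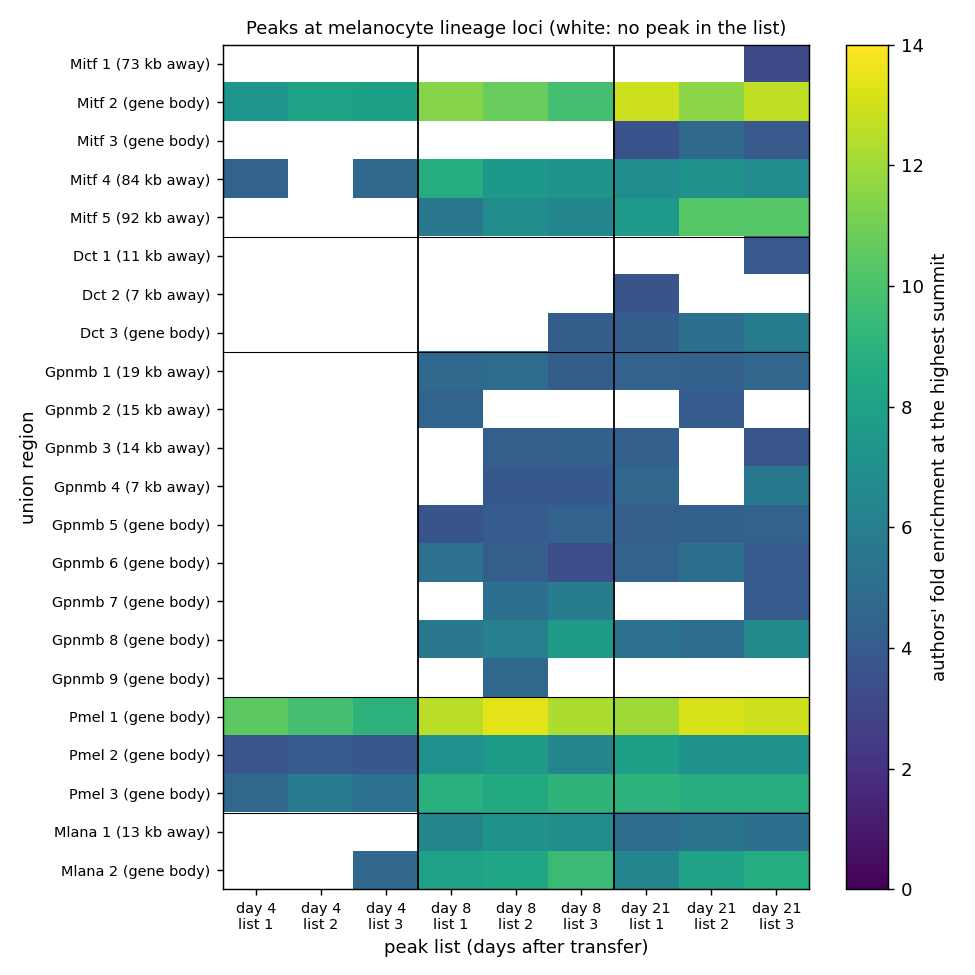
Authors' fold enrichment at the highest summit (colour, over each library's own local background) of the 22 union regions (rows, grouped by locus) in the 9 peak lists (columns, by day after transfer); white means no peak. The 4 regions called in every list lie in Mitf and Pmel, and the whole Gpnmb block is white on day 4.

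No list called a region at Tyr, Tyrp1 or Sox10. Tyr encodes tyrosinase, the first enzyme of melanin synthesis, and its 68.7 kb gene body on chromosome 7 lay in a stretch of 3.30 Mb, chr7:84794987-88097576, without a peak in any of the 9 lists. Tyrp1 encodes an enzyme of the same family, and its stretch of chromosome 4 without a peak was 7.11 Mb long, chr4:75401476-82513243. These were the 55th and the 8th longest of 62943 gaps between union regions, whose median length was 9.79 kb. They hold 35 and 5 protein-coding genes. Of the 35 around Tyr, 32 are olfactory or vomeronasal receptor genes. Sox10, the factor upstream of Mitf, had no region in its body on chromosome 15 and lay in a gap of only 59.8 kb. The nearest region to it, 5.96 kb away in the locus of Polr2f, had calls in 0, 3 and 2 lists of days 4, 8 and 21. Over all 21631 protein-coding genes 25.7% had no union region, against 3 of these 8.

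Dct encodes dopachrome tautomerase, the third enzyme of the family. Its start site lay 32.3 kb from the nearest union region, and all its calls were at the other end of the gene or beyond it. The 1 region in the body, chr14:118019486-118019898, was called in no day 4 list, in list 3 of day 8 with a fold enrichment of 4.14, and in all 3 day 21 lists with 4.13, 5.14 and 5.85. These peaks stood at percentiles 10.01 on day 8 and 7.30, 25.3 and 40.3 on day 21, where the percentile is the rank of a peak's −log10 p within its own list. Thus even the peaks that day 21 lists shared were below the middle of their lists. The 2 other regions, 6.86 and 11.2 kb beyond the gene, were each called in a single day 21 list, at percentiles 4.46 and 10.07.

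Mitf was called at its most upstream start and not at its last one. The region over the first start, chr6:97806714-97807780, had summit fold enrichments of 7.36, 8.05 and 7.97 in the day 4 lists, 11.4, 10.8 and 9.80 in the day 8 lists and 13.0, 11.6 and 12.6 in the day 21 lists. It ranked at percentiles 79.7 to 86.9 on day 4, 88.95 to 92.4 on day 8 and 96.0 to 98.1 on day 21, so it belonged to the strong peaks of each list. The summit pileups recovered from fold and p were 37, 41 and 47 tags on day 4, 71, 81 and 76 on day 8, and 98, 89 and 109 on day 21. By contrast, the start at 123 kb into the gene and the last start at 185 kb were 85.9 and 23.9 kb from the nearest union region.

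The other 4 Mitf regions were weaker. The region chr6:98015676-98015996, near the 3′ end of the body, had calls in 0, 0 and 3 lists of days 4, 8 and 21, at percentiles 1.38, 17.6 and 8.67 and with pileups of 11, 15 and 15 tags. It was thus among the weakest calls of those lists. Beyond the gene's end coordinate, chr6:98105267-98105995 at 83.9 kb had calls in 2, 3 and 3 lists of days 4, 8 and 21. Its neighbour chr6:98113563-98114064 at 92.2 kb had calls in 0, 3 and 3 lists, with fold enrichments of 5.63, 6.87 and 6.45 on day 8 and 7.51, 10.3 and 10.3 on day 21. Both are nearer to Mitf than to any other protein-coding gene end but lie far from it, and the next such end, of Gm765, is 132 and 124 kb away. The last region, 73.1 kb below the start, was called in day 21 list 3 alone, at percentile 0.819.

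**Figure D2:**
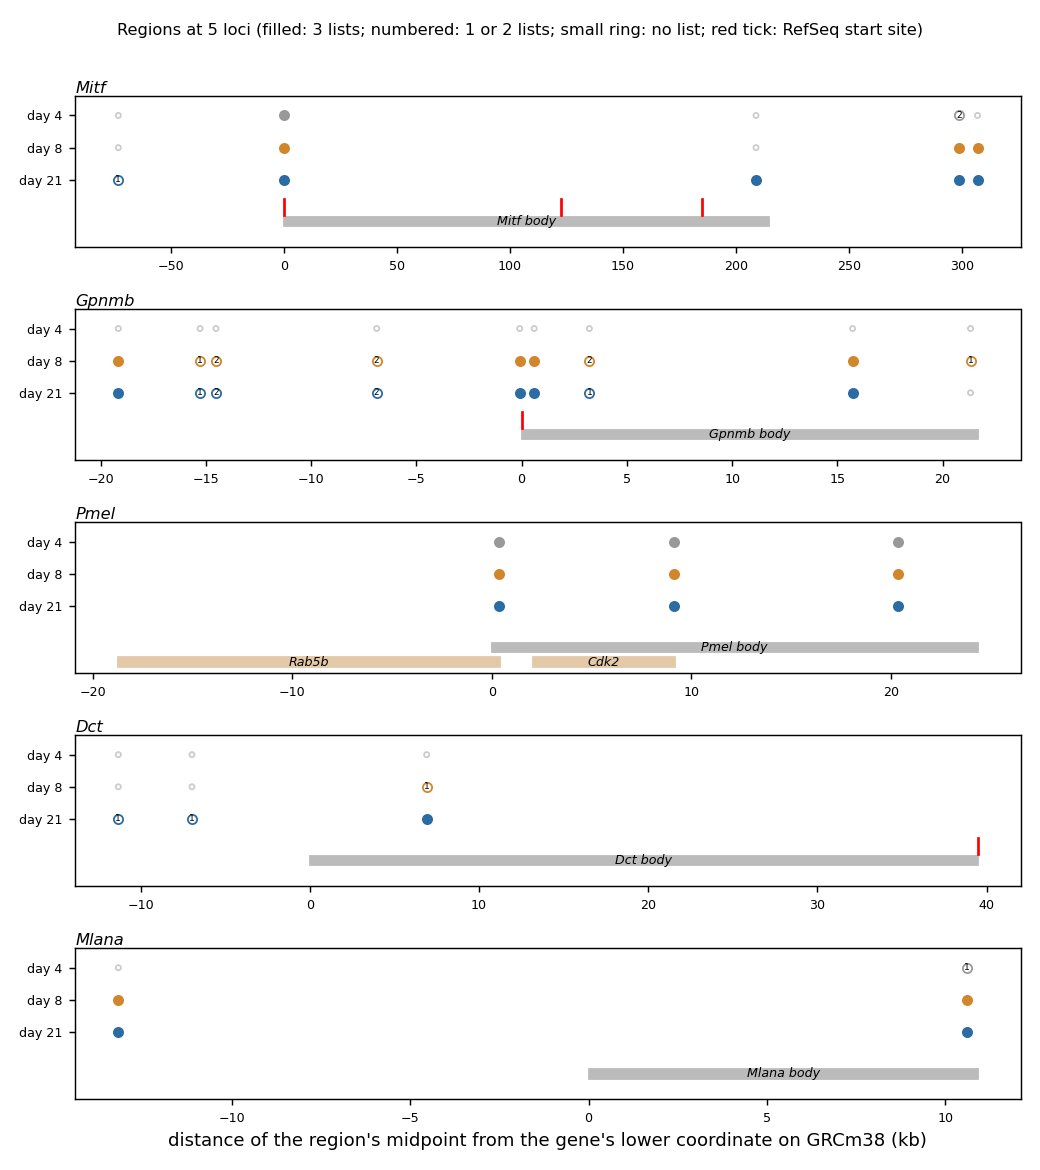
Position of each union region (midpoint, kb from the gene's lower coordinate on GRCm38) at 5 loci, with 1 row per day; filled circles were called in 3 lists, numbered circles in 1 or 2, small rings in none, grey bars are the gene bodies, tan bars other genes that share a region, and red ticks RefSeq start sites. Calls sit on the first of the 3 Mitf starts and on the Gpnmb start, and none sits on the Dct start.

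Pmel encodes the protein of the melanosome's amyloid fibrils, and all 3 of its regions were called in all 9 lists. It was thus the most constantly called locus of the 8. Its annotated body on chromosome 10 overlaps other genes, and 2 of the regions lie on the promoters of those genes. The strongest, chr10:128695677-128696828, covers the promoter window of Rab5b, a GTPase of early endosomes that most cells use. Its summit pileups were 74, 75 and 80 tags on day 4, 125, 141 and 141 on day 8 and 120, 125 and 152 on day 21. Its fold enrichments ran from 9.04 to 13.4, at percentiles of 98.6 or more in every list. The region chr10:128704431-128705574 covers the promoter window of Cdk2, a kinase of the cell division cycle, with fold enrichments of 3.69, 4.08 and 3.81 on day 4, 7.08, 7.63 and 6.43 on day 8, and 7.90, 7.17 and 7.14 on day 21. Only chr10:128715702-128716794, 3.34 kb from the end of Dgka, overlaps no other gene body, and it stood at percentiles 57.9 to 94.1. No promoter window was given for Pmel, so whether one of these calls is at its own start was not tested.

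Mlana encodes MART-1, a melanosome protein and a common target of anti-melanoma T cells. Its region at the end of the body, chr19:29707878-29708446, was called in 1 day 4 list and in every later list, with fold enrichments of 8.02, 8.26 and 9.54 on day 8 and 6.34, 8.05 and 8.66 on day 21. It stood above the middle of each day 8 and day 21 list, at percentiles of 50.5 to 76.4. The other, chr19:29684150-29684546, lies 13.0 kb below the gene over a promoter window of the gene model Gm36126. It had calls in 0, 3 and 3 lists of days 4, 8 and 21, and its fold enrichments were 6.38, 7.13 and 6.89 on day 8 and 5.02, 5.40 and 5.15 on day 21.

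Gpnmb had the most regions and the largest difference between days 8 and 4 among the members that could be fitted. None of its 9 regions was called in any day 4 list, and 5, 8 and 7 were called in the day 8 lists and 6, 5 and 7 in the day 21 lists. The 4 regions called in all 6 later lists included the one over its start, chr6:49036178-49036679. Its fold enrichments were 3.63, 4.07 and 4.42 on day 8 and 4.24, 4.37 and 4.42 on day 21, at percentiles 8.63 to 33.0. The others were chr6:49036950-49037281 and chr6:49051852-49052627 in the body and chr6:49017117-49017600 at 18.9 kb below it. The strongest of the 4 was that at chr6:49051852-49052627, which reached a fold enrichment of 7.60 and percentile 61.8 in day 8 list 3. The remaining 5 regions were called in 1 to 4 lists. The Gpnmb calls thus came as several small peaks on and around the gene, unlike the single strong start of Mitf.

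**Figure D3:**
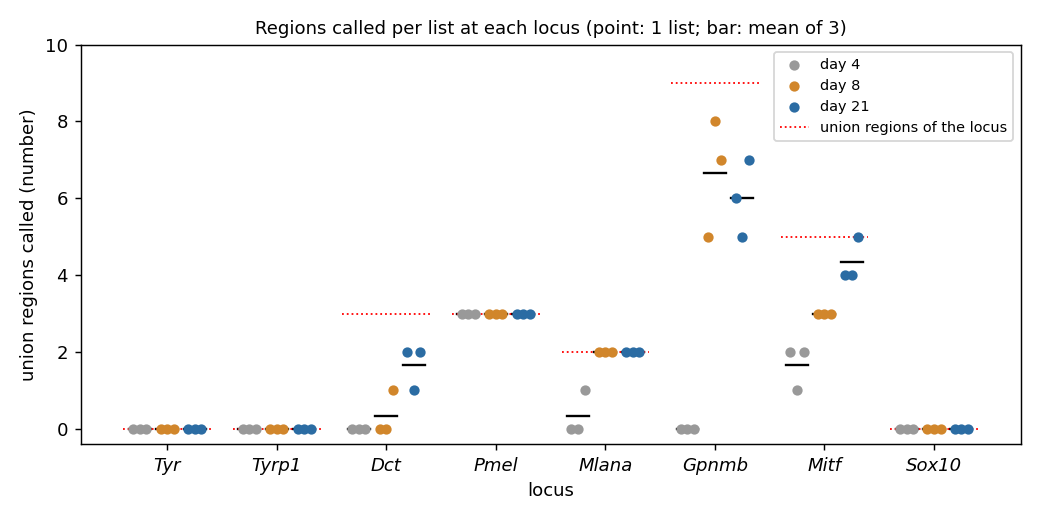
Number of union regions called at each locus (y axis) in each list (points, 3 per day; bar, mean), with the number of union regions of the locus as a dotted line. Tyr, Tyrp1 and Sox10 are at 0 throughout, Pmel is at 3 in every list, and Gpnmb is at 0 on day 4 and at 5 to 8 later.

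Day 8 was compared with day 4, the step at which the lists lengthened most. Of the 22 regions, 6 were called in 3 of 3 day 8 lists and 0 of 3 day 4 lists, or 27.3%, where 25.7% of all 62963 regions were. They were 4 of Gpnmb, 1 of Mitf and 1 of Mlana. The reverse was true of 0 of the 22 and of 0.00953% of all regions. Day 21 against day 4 gave 8 of 22 regions called in this way, where 25.3% of all regions were, and 0 in the reverse direction, where 0.00794% were. The share of gained regions at day 8 was thus near that of the genome. A list called 22.7% ± 4.55 of the melanocyte loci's regions on day 4, 68.2% ± 7.87 on day 8 and 77.3% ± 9.09 on day 21 (SD, 3 lists each), and 30.2% ± 2.32, 74.5% ± 2.97 and 73.9% ± 4.89 of all union regions. When only the 19499 strongest peaks per list were kept, the length of the shortest list, these shares were 22.7%, 24.2% and 24.2% for the melanocyte loci and 28.9%, 30.7% and 30.7% for all regions, and 0 of the 22 regions were gained on day 8.

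Where a gene had 3 or more union regions, the number of called regions was divided by the length of the list and compared between days with limma over all 9 lists, so that a log2 difference is relative to the lengthening of the whole list. Of 7829 genes, 15.7% were higher and 24.2% lower on day 8 than on day 4 (Benjamini-Hochberg adjusted). Of the 8 members 4 could be fitted, and 1 was higher and 2 lower. Their median log2 difference was −0.67, against −0.14 over all genes. Gpnmb and Dct had no call in any day 4 list, as was true of 901 of the 7829 genes (11.5%). Of these genes 561 were higher on day 8. Gpnmb and Dct thus had the 3 regions needed for the fit through the later lists alone. Mitf also reached 3 regions only with the later lists, as its day 4 calls lay at chr6:97806714-97807780 and chr6:98105267-98105995 alone. How many genes with some day 4 calls did so was not counted. With no day 4 call, regions of Gpnmb could be found in the later lists only, so its p-value describes these lists and is no independent support for a difference. Gpnmb was higher, with 5, 8 and 7 regions in the day 8 lists against 0 in each day 4 list (log2 difference 2.52 ± 0.17 SE, limma, adjusted p = 1.37e-05). Its size depends on the 0.5 region added before taking logs, and it was 1.62 with 1 region added. On the strongest peaks alone it did not pass (0.44, adjusted p = 0.848).

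Mitf and Pmel were lower only relative to list length. Mitf had 3 regions in each day 8 list against 2, 1 and 2 in the day 4 lists, which gave −0.57 ± 0.17 (adjusted p = 0.0251, limma). With all 5 of its regions called it could have reached no more than 0.08. That call was lost when any of 6 single lists was left out, and without division by list length Mitf was higher (0.73, adjusted p = 0.0150). Pmel had 3 regions in every list of both days, which gave −1.30 ± 0.15 (adjusted p = 0.000169, limma). That is also the highest value it could have had, and without division it was 0. Dct had 0, 0 and 1 regions on day 8 against 0 in each day 4 list and did not pass (−0.77 ± 0.65, adjusted p = 0.351, limma). Without division the median over all genes moved to 1.17, and 6188 genes were higher and 0 lower, in place of 1231 and 1892. With a pseudocount of 1 there were 720 higher and 3048 lower.

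Day 21 was compared with day 8 to see whether these loci differed late in the response. Of the 22 regions 1 was called in 3 of 3 day 21 lists and 0 of 3 day 8 lists, the weak region near the 3′ end of Mitf, where 1.02% of all regions were. It was not kept on the 19499 strongest peaks. The reverse was true of 0 of the 22 and of 1.09% of all regions. Mitf had 4, 4 and 5 regions in the day 21 lists against 3 in each day 8 list, so the days did not overlap, as in 3.59% of the 7829 genes in this direction and 4.22% in the other, and the difference did not pass (log2 difference 0.47 ± 0.17, adjusted p = 0.457, limma). Dct had 2, 1 and 2 regions in the day 21 lists against 0, 0 and 1 in the day 8 lists (1.56 ± 0.65, adjusted p = 0.503, limma). Gpnmb, with 6, 5 and 7 against 5, 8 and 7, differed by −0.12 ± 0.17, and Pmel by 0.01 ± 0.15. None of the 4 fitted members was called by limma, where 0% of the 7829 genes were higher and 0.0128% lower. That last share is 1 gene, Foxf2, which is named here after its value was seen. At an unadjusted p under 0.05 there were 2 of the 4, Mitf and Dct, and 697 genes in all, or 8.90%. Of the 3 Dct regions, those beyond the gene were called on day 21 only, each in a single list. So Dct entered the fit through day 21, where it was higher, and its p-value is no independent support for a difference. Without the floor on the spread limma called 0 members and 2 genes, both lower.

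Other genes of the pathway were taken from lists. Mitf belongs to a family of related factors, and of its relatives Tfeb, a regulator of lysosome genes, had 5 of 6 regions in each day 8 list against 1, 0 and 1 in the day 4 lists (1.10 ± 0.35, adjusted p = 0.0292, limma). Tfeb reached the 3 regions needed for the fit only with the later lists, so its p-value is no independent support for a difference. Tfe3 had 1, 2 and 3 regions on day 8 against 1 in each day 4 list and did not pass (−0.65, adjusted p = 0.138, limma; highest possible value −0.08), and Tfec had no region. Of 14 melanosome and pigment genes, 5 had no region: Slc45a2, Oca2, Slc24a5, Gpr143 and Tspan10, the first 4 of which are tied to albinism in mice or humans. Of the 6 that could be fitted, 0 were higher and 1 lower on day 8, with a median of 0.26. The lower one was Rab27a, which tethers melanosomes in pigment cells and also lytic granules in cytotoxic T cells (7, 8 and 8 of its 9 regions on day 8 against 3, 4 and 5 on day 4, −0.42, adjusted p = 0.0435, limma). With all 9 called it could have reached no more than −0.20, so its sign was set by the day 4 counts, and it too was lower only relative to list length. Trpm1, with the most regions of the list, had 10, 8 and 8 of 12 on day 8 against 2, 2 and 4 on day 4 (0.28, adjusted p = 0.294). Mc1r, the melanocortin receptor gene, had a single region, called in 0, 3 and 0 lists of days 4, 8 and 21.

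Of 10 neural crest and melanoblast genes, Sox9 had no region, and Pax3, a factor upstream of Mitf, had 1 that was called in day 21 list 3 only. Of the 3 that could be fitted, 1 was higher and 0 lower on day 8, and the median was −0.40. The higher one was Kit, the stem cell factor receptor of melanoblasts, mast cells and blood progenitors, with 5, 5 and 4 of 6 regions on day 8 against 0, 1 and 0 on day 4 (1.53 ± 0.38, adjusted p = 0.0107, limma). Kit too reached the 3 regions needed for the fit only with the later lists, so its p-value is no independent support for a difference. Tfap2a and Edn3 did not pass (−0.40, adjusted p = 0.300, and −1.06, adjusted p = 0.280). On day 21 against day 8 limma called 0 genes of these 3 lists. At an unadjusted p under 0.05 there was 1 in the melanosome list, Rab38 with 4 regions in each day 21 list against 2, 1 and 2 in the day 8 lists.

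Markers of the sorted cell and of other cells were set beside these loci. All 12 T cell genes had a call in each of the 3 lists of every day, with Cd3e, Cd8a and Lck among them. In this count and those below, a gene's calls need not lie in the same region. Per list, 36 to 43 of their 117 regions were called on day 4, 87 to 93 on day 8 and 87 to 98 on day 21. Of 12 macrophage and dendritic cell genes, 5, 6 and 6 had a call in each list of days 4, 8 and 21, with 9 to 10, 27 to 33 and 26 to 31 of 41 regions. Lyz2 and C1qa had none, and Csf1r, which defines macrophages, had 1 region called in 1 day 21 list. Others of the list had many calls: Itgam had 5 of 6 regions in each day 8 list against 2, 1 and 1 in the day 4 lists, Spi1 had 3, 4 and 5 of 7 against 1 in each, and Zbtb46 had 10 of 10 in each against 4, 5 and 5. Itgax, an integrin gene of dendritic cells and of some activated lymphocytes, had 3 of 4 regions in each day 8 list against 0 in each day 4 list, and it was the 1 of 5 fitted genes that passed (higher, 1.51 ± 0.30 SE, adjusted p = 0.00372, limma). The median of the 5 fitted genes on day 8 against day 4 was 0.28. On day 21 Itgax had 1 region in each list, and the difference from day 8 did not pass (−1.21 ± 0.30 SE, adjusted p = 0.293, limma). Of 7 B cell genes, 0, 5 and 6 had a call in each list of days 4, 8 and 21, with 0 to 2, 13 and 12 to 18 of 20 regions, and Ms4a1 had no region. Of the 3 that could be fitted, 2 were higher on day 8 relative to list length, Pax5 (1.61 ± 0.38, adjusted p = 0.00888) and Ebf1 (1.87 ± 0.24, adjusted p = 0.000397, limma), both transcription factors of B cells, and the median was 1.61 against −0.14 over all genes. A list called 65.0% of the B cell genes' regions on day 8 against 5.0% on day 4, and 74.5% against 30.2% of all regions. Of the 8 melanocyte genes, 2, 4 and 5 had a call in each list of days 4, 8 and 21, with 4 to 6, 13 to 16 and 15 to 19 of 22 regions, and Tyr, Tyrp1 and Sox10 had no region. Pax5, Ebf1 and Itgax were thus higher on day 8 relative to list length, as Gpnmb was. Ebf1 and Itgax, like Gpnmb, had 0 regions in each day 4 list. Their regions could be found in the later lists only, so their p-values describe those lists and are no independent support for a difference. Pax5 had 1, 0 and 0 regions in the day 4 lists. It reached the 3 regions needed for the fit only with the later lists, so the same limit holds for its p-value. On the strongest peaks of each list, at equal list length, Gpnmb did not pass (0.44, adjusted p = 0.848, limma), and 2 of 7152 genes were higher. The part of Pax5, Ebf1 and Itgax in the calls at Gpnmb and Mitf was not tested. At the starts of Tyr, Tyrp1 and Dct and at the last Mitf start, which are melanocyte-type starts, there was no call on any day. Over all promoter windows 59.5% had no call in any list. No window was given for Pmel, Mlana and Sox10, so their starts were not tested.

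**Figure D4:**
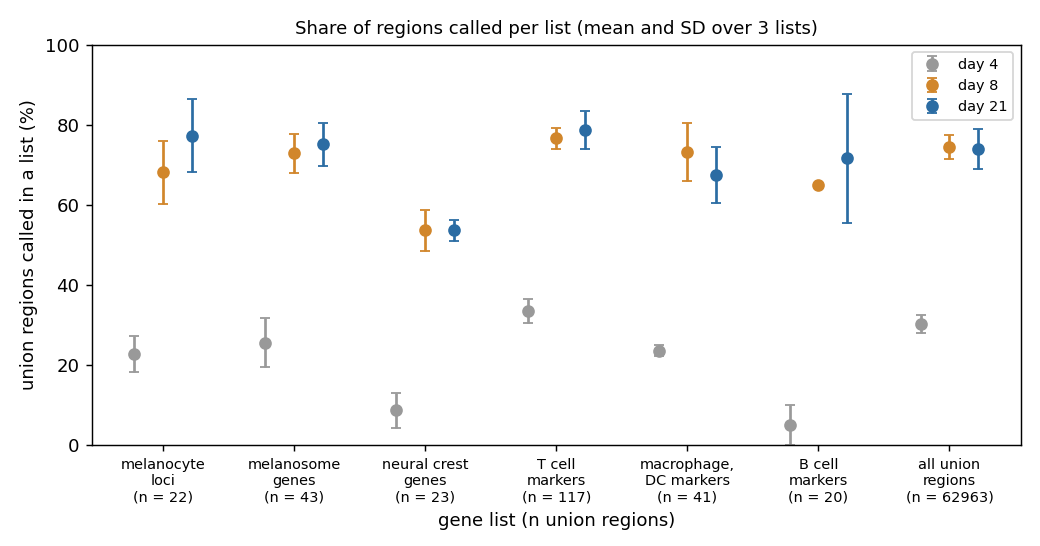
Share of union regions called in a list (%, mean and SD over the 3 lists of a day) for the melanocyte loci, 5 other gene lists and all union regions. The melanocyte loci rose with all regions, from 22.7% against 30.2% on day 4 to 68.2% against 74.5% on day 8. On day 21 the melanocyte loci were at 77.3% against 73.9%.

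The genes whose pattern over the 9 lists was most like that of Gpnmb were sought among 4115 genes with at least 5 union regions. By Euclidean distance between shares of regions called they were Mta1 (0.175), Fhad1 (0.207) and Nr3c2 (0.229). Mta1 had 0 regions on day 4 and a mean of 3.67 of 5 on day 8 and on day 21. Fhad1 had 0, 6.67 and 5.67 of 8.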

How the data were processed

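ATAC-seq was measured in 9 libraries of sorted P14 cells, 3 per day, grouped by the day in the sample titles because the tags for time point and genotype carry each other's values. Per the submitters' processing notes, mm10 was the build, and the tools were deepTools 2.0, MACS2, Picard and BWA 0.7.15. For read filters, multiply mapping reads, any Tn5 shift and peak settings, nothing is stated in these sources. The authors called peaks per library. The deposited lists give each peak's position, −log10 of p and q, a score, and the summit's fold enrichment (local background of the same library). These values belong to each peak, and were used to describe, rank and filter peaks within a list.

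Peaks on chromosomes 1 to 19 and X (353295) were merged into 62963 union regions, and 95.3% of these were placed at a gene of a RefSeq table for GRCm38.p6 with 21631 protein-coding genes. All 8 members matched by symbol. Coordinates are 1-based on mm10, and no genome was used here. Summit pileups were recovered as whole numbers from fold and −log10 p under the Poisson formula (tolerance 0.001 in −log10 p), for at least 99.995% of the peaks of each list.

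Genes needed 3 or more union regions, and log2((regions called + 0.5) / relative list length) was fitted with limma 3.58.1 in R 4.3.3 (trend, robust, 1 term per day). The moderated spread was floored at that of 1 region called with a probability of 0.5 per list, since near-identical same-day lists make the estimated spread too small. P-values were Benjamini-Hochberg adjusted over all genes, with a threshold of 0.05. Gained regions had calls in every list of the later day and in no list of the earlier, and have no p. Alternatives changed list length, its division, the pseudocount, the floor, the q threshold, the overlap, the locus rule, the gene filter and the lists used. The rest used scipy 1.17.1, numpy 2.4.6, matplotlib 3.10.9 and pandas 2.3.3 in Python 3.11.15. The members, gene lists and tests were chosen with earlier results of these data known. Named were the 8 members, genes that share or adjoin their regions, and of each list the called genes and those with most regions.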

Additional observations from a re-analysis of the deposited data

How the results depend on the processing

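List length decided most gene results. On the 19499 strongest peaks of each list, 0 members were higher and 0 lower on day 8 against day 4, in place of 1 and 2, with 2 and 10 genes in all in place of 1231 and 1892, and 0 of the 22 regions were gained at either step. The share of regions called was then 24.2% on days 8 and 21. Without division by list length 2 members were higher and 0 lower, with 6188 and 0 genes, and Mitf (0.73) and Dct (0.53) changed sign. A pseudocount of 1 gave 720 higher and 3048 lower genes, and fitting genes with at least 1 region gave 5796 lower.

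Counting a region as called only where peaks cover at least 50% of it gave 1 lower member and a day 4 share of 9.09%, and the 50 kb rule, under which Mitf had too few regions to be fitted, also gave 1 lower member. With single lists left out, 1 to 2 members were lower on day 8, and Mitf had −0.78 to −0.43. The lists without which Mitf lost its call were day 4 lists 1 and 3, all 3 day 8 lists and day 21 list 3. Without day 8 list 3, 2 regions were gained on day 21, and 1 with any other list left out. The 1 gene lower on day 21 against day 8 became 0 on the strongest peaks, without division, with at least 1 region, with any list left out (0 to 0) or with the replicate block, and 2 without the floor or with 50% of a region covered. None of these changes was traced to a cause beyond the setting itself.

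Small differences on day 21 against day 8 changed sign: with single lists left out Gpnmb ran from −0.28 to 0.030 (above 0 without day 8 list 2) and Pmel from −0.020 to 0.066 (below 0 without day 8 list 3 or day 21 list 1 or 2), and Pmel had −0.23 with regions inside other genes added. Deviations of same-numbered lists correlated at −0.0293 to 0.0608 over 9 pairs, and those of differently numbered lists at −0.0406 to 0.0213 over 18 pairs. Between days 8 and 21 the same-numbered lists had 0.0206 to 0.0608 and the others −0.0406 to 0.0094. These small correlations cannot decide whether replicate numbers pair the samples. With the replicate number as a block 1077 genes were higher and 1605 lower on day 8, 1 and 2 of the members among them. Adding regions inside other genes gave 23 regions, of which 7 were gained on day 8. The lists give no read totals, so depth limits every absence of a call.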
